A study of Mus musculus with 10 samples.

Results

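The genes described here encode factors through which connective tissue cells act on osteoclasts and on migrating blood cells, measured in 2 cell populations sorted from the calvarial sutures of mice. They were chosen by name: Tnfsf11 (RANKL), Tnfrsf11b (OPG), Csf1, Il34, Kitl and the chemokine genes Ccl2, Ccl7, Ccl11 and Cxcl12. All 9 are in the count table of 25239 gene symbols, and all 9 passed the filter on low counts that left 15416 genes for testing. A suture is the fibrous joint between bones of the skull vault. The populations, called DDR2-plus and PSC in the labels (the second name is not expanded there), had 5 libraries each. The cells are labelled calvarial stem cells isolated by sorting. Both populations came from mice of postnatal day 7 whose genotype is labelled wild type, while the protocol names mice with a Ctsk-driven Cre, so that the sources do not settle which alleles the animals carried. Ctsk encodes cathepsin K, and DDR2 is a collagen receptor of the cell surface.

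Osteoclasts, the cells that resorb bone, arise from monocyte-lineage cells that need CSF1 receptor signalling to survive and RANKL to differentiate. RANKL binds the receptor RANK on the precursor, and OPG is a soluble decoy receptor that keeps RANKL away from it. CSF1 and IL34 are separate ligands of the same receptor, KITL (stem cell factor) acts on KIT, and the chemokines steer leukocytes and haematopoietic cells through receptors such as CCR2, CCR3 and CXCR4. In bone these factors come largely from osteoblast-lineage and stromal cells. The libraries sorted here also held chondrocyte, neural and Schwann cell marker RNA, more of it in DDR2-plus, as given below.

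Library totals ranged from 49843470 to 62021992 counts for DDR2-plus and from 43419129 to 58270419 counts for PSC. Levels are given as CPM, counts scaled to one common library size with the TMM factors of edgeR. Type I collagen genes Col1a1 and Col1a2 took between 4.56% and 8.24% of the counts in DDR2-plus and between 21.5% and 23.7% in PSC. The genes behind the names of the sort and the Cre were lower in DDR2-plus: Ddr2 was at 112 ± 3.56 CPM against 152 ± 10.7 CPM, and Ctsk at 107 ± 15.2 CPM against 294 ± 14.97 CPM (SD, n = 5 each). DDR2-plus libraries held more chondrocyte marker RNA, with 8 markers summing to between 83060 and 115700 CPM against 9528 to 23910 CPM in PSC, and less osteoblast marker RNA, at 29310 to 51920 CPM against 158600 to 180400 CPM. Neural and pineal markers were also higher in DDR2-plus, at 167 to 257 CPM against 7.17 to 12.8 CPM, as were Schwann cell markers, at 201 to 657 CPM against 8.08 to 41.2 CPM. Osteocyte markers summed to 399 to 1015 CPM against 1620 to 2751 CPM, and the 4 tested were all lower. Of 7 mural cell markers 2 were higher (Cspg4 and Acta2) and 4 lower (Myh11, Kcnj8, Abcc9 and Mcam). Myh11 was 24.1-fold and Kcnj8 6.20-fold lower. The list's sum of 738 to 942 CPM against 515 to 574 CPM came mostly from Cspg4 and Acta2. These were at 614 against 317 CPM and at 219 against 131 CPM. Of 6 endothelial markers tested 3 were higher (Pecam1, Kdr and Egfl7) and 2 lower (Cdh5 and Tek), with sums of 24.7 to 52.5 CPM against 20.8 to 42.0 CPM. Of 7 reticular and adipocyte-lineage stroma markers tested, 2 were higher (Foxc1 and Ebf1), 1 lower (Cebpa) and 4 without a call, among them Lepr. That list summed to 247 to 366 CPM against 217 to 273 CPM. In bulk RNA, a smaller share of the cells that make a transcript and less of it per cell cannot be told apart, and the part of these marker differences in the results on the 9 genes was not tested.

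RefSeq-derived promoter sequences of build GRCm38.p6 were matched for 4 of the 9 genes, Tnfsf11, Csf1, Kitl and Cxcl12. Entries were missing for Tnfrsf11b, Il34, Ccl2, Ccl7 and Ccl11. Shown are the 250 bases before the transcription start of 3 of the genes that were lower in DDR2-plus, for a view of how unlike their core promoters are. The window of Kitl lies mostly inside the gene as GENCODE annotates it and is left out. Sequences run 5′ to 3′ on the strand of the gene, and capitals mark matches to the searched motifs.
Tnfsf11 (chr14:78308044-78308293, minus strand): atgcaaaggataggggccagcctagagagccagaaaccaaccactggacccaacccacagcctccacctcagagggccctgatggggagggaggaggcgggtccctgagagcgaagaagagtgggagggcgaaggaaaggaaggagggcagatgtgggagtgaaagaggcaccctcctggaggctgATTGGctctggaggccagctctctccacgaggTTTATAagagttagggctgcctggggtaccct
Csf1 (chr3:107760470-107760719, minus strand): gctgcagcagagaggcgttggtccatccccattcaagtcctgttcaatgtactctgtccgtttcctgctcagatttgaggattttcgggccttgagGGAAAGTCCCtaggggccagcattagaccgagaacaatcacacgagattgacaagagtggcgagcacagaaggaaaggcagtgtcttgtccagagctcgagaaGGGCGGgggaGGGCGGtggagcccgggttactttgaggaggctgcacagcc
Cxcl12 (chr6:117168285-117168534, plus strand): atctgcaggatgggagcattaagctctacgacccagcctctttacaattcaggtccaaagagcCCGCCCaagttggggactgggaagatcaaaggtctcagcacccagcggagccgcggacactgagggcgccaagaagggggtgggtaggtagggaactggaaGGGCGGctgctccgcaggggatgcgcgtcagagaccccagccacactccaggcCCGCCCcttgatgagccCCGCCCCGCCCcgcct

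Motifs were searched on both strands: the TATA box (TATAAA), the CCAAT box (CCAAT), the GC box (GGGCGG), AP-1 (TGANTCA), RUNX (TGTGGT), STAT (TTCNNNGAA) and the kB consensus. The Tnfsf11 window held a TATA box 32 to 27 bases before the start and a CCAAT box 64 to 60 bases before it, both read on the opposite strand, and no GC box. The Csf1 window held a pair of GC boxes, at 51 to 46 and 41 to 36 bases, and a kB match at 154 to 145 bases. The Cxcl12 window held 5 GC boxes, of which those at 16 to 11 and 11 to 6 bases share a base, and no TATA box. Over all 32851 windows of this length, 12.4% held a TATA box, 33.8% a CCAAT box, 32.7% a GC box, 3.9% a kB match, 6.75% an AP-1, 14% a RUNX and 7.02% a STAT match. The last 3 motifs were absent from the printed windows. A match of letters is a description and not a binding site.

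Between the populations 7 of the 9 genes were lower and 1 was higher in DDR2-plus by the quasi-likelihood test of edgeR (Benjamini-Hochberg adjusted p under 0.05 over all genes tested), and Ccl2 did not pass. Over all genes, 19.0% were called lower and 20.1% higher, 39.1% in all. The 9 genes were chosen with earlier results of these data known, so setting them beside these shares is a description only. The median log2 fold change was -0.96 over the 9 genes and 0.04 over all genes tested. The groups did not overlap for 6 of the 9 genes, against 30.1% of all genes. These 6 were lower in DDR2-plus, a pattern that 14.6% of all genes had. Tested against a fold change of 1.5 in place of none, Kitl, Ccl7, Ccl11 and Cxcl12 were called lower (4 genes) and Tnfrsf11b did not pass, where 5.88% of all genes were called lower and 8.08% higher.

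**Figure D1:**
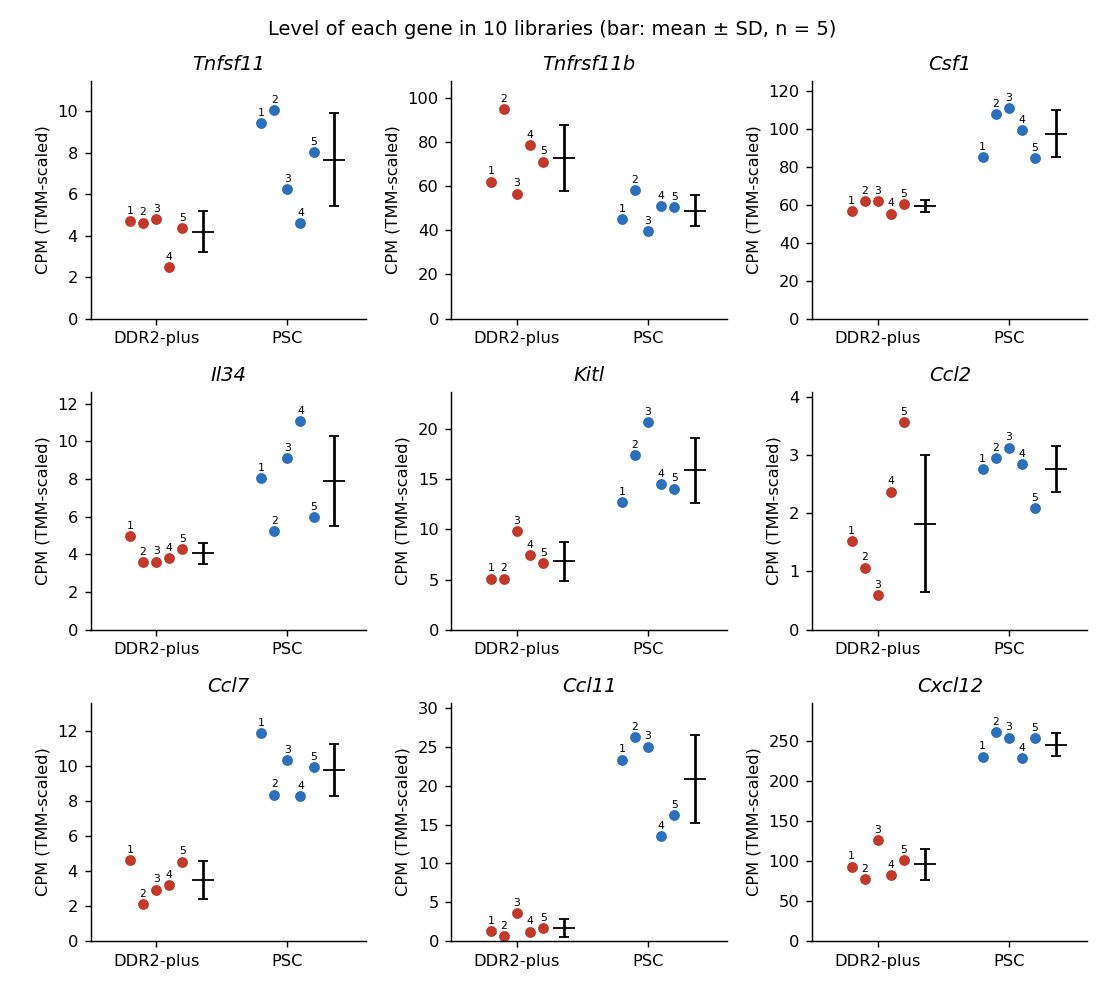
CPM of each of the 9 genes in the 5 DDR2-plus (red) and 5 PSC (blue) libraries, numbered as in the labels, with the mean and SD as a bar. The groups are apart for Csf1, Il34, Kitl, Ccl7, Ccl11 and Cxcl12, and overlap for Tnfsf11, Tnfrsf11b and Ccl2.

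Tnfsf11 (GRCm38 chromosome 14, 78277445 to 78308043, minus strand), the gene of RANKL, was at 4.71, 4.63, 4.79, 2.48 and 4.38 CPM in DDR2-plus 1 to 5 and at 9.42, 10.04, 6.23, 4.63 and 8.04 CPM in PSC 1 to 5. PSC 4 fell inside the DDR2-plus range, the other PSC libraries were above it, and DDR2-plus 4 was the lowest of all. The gene was 1.83-fold lower in DDR2-plus (log2 fold change -0.87, SE 0.27; edgeR adjusted p = 0.0218). The call rested on PSC 2 and on the scaling: without PSC 2 the log2 fold change was -0.76 (edgeR adjusted p = 0.057), and with library size alone it was -0.60 (edgeR adjusted p = 0.0927). Over all 20 alternatives the adjusted p of Tnfsf11 lay between 0.00789 and 0.246.

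Tnfrsf11b (chromosome 15, 54250619 to 54278484, minus strand), the gene of the decoy receptor OPG, was the only one of the 9 that was higher in DDR2-plus. It stood at 62.1, 95.1, 56.7, 78.8 and 71.2 CPM in DDR2-plus 1 to 5 and at 45.1, 58.3, 39.6, 51.0 and 50.6 CPM in PSC 1 to 5. The lowest DDR2-plus library, number 3, was just under the highest PSC library, number 2. The mean was 72.8 ± 15.1 CPM against 48.9 ± 6.99 CPM (SD, n = 5 each), 1.49-fold higher (log2 fold change 0.57, SE 0.142; edgeR adjusted p = 0.00625).

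The ratio of RANKL to OPG counts within a library does not depend on how libraries are scaled. Per 100 Tnfrsf11b counts there were 7.61, 4.88, 8.47, 3.15 and 6.16 Tnfsf11 counts in DDR2-plus 1 to 5, and 20.9, 17.3, 15.8, 9.10 and 15.9 in PSC 1 to 5. Every PSC library was above every DDR2-plus library, although PSC 4 and DDR2-plus 3 were close. The geometric mean was 5.72 in DDR2-plus and 15.2 in PSC, a ratio 2.67-fold lower in DDR2-plus (log2 difference -1.41; SD of 0.569 in DDR2-plus and 0.448 in PSC, n = 5 each). By a two-sided exact permutation test the p was 0.00794, the lowest possible with 5 libraries a group, and the adjusted p was 0.0238 over the 3 ratios tested. That test takes the libraries as independent, while the protocol names 5 mice. The sources do not say whether same-numbered libraries came from the same animal. Taken as pairs by number, exact sign flips gave a p of 0.0625, the smallest that 5 pairs can give. These are ratios of read counts on genes of different length and not of molecules or protein.

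**Figure D2:**
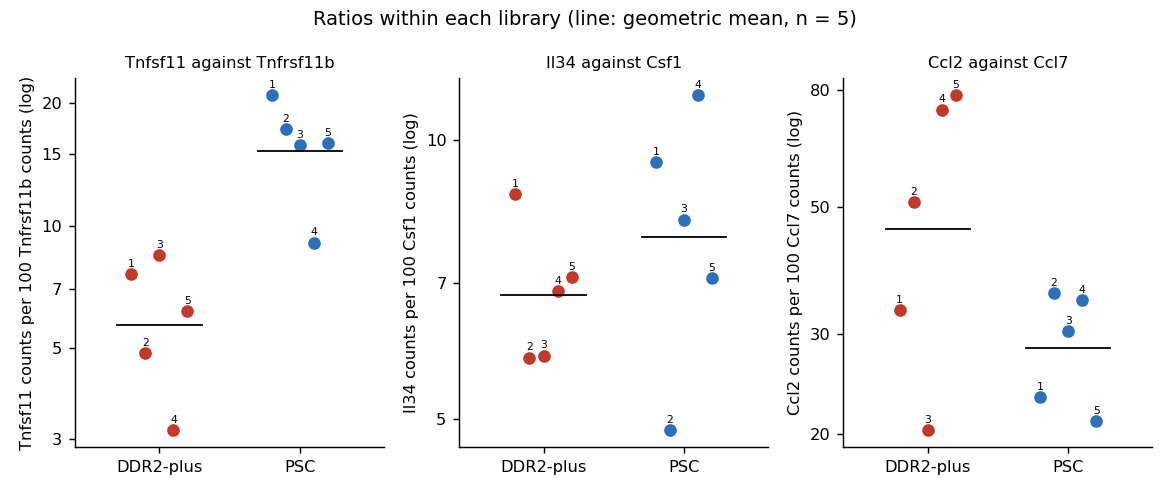
Counts of the first gene per 100 counts of the second gene in each library (log axis), for Tnfsf11 against Tnfrsf11b, Il34 against Csf1 and Ccl2 against Ccl7, with the geometric mean of 5 libraries as a line. The groups are apart in the first panel, with DDR2-plus between 3.15 and 8.47 and PSC between 9.10 and 20.9, and overlap in the other panels.

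Both ligands of the CSF1 receptor were lower in DDR2-plus. Csf1 (chromosome 3, 107741048 to 107760469, minus strand), the main growth factor of macrophages and osteoclast precursors, was at 56.8, 62.01, 61.98, 55.4 and 60.2 CPM in DDR2-plus 1 to 5 and at 85.3, 108, 111, 99.2 and 84.5 CPM in PSC 1 to 5. It was the steadiest of the 9 genes in DDR2-plus, with a coefficient of variation of 5.12%. The groups were well apart, at 59.3 ± 3.04 CPM against 97.6 ± 12.4 CPM (SD, n = 5 each), 1.65-fold lower (edgeR adjusted p = 4.5e-05).

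Il34 (chromosome 8, 110741829 to 110805924, minus strand), the ligand known for supporting microglia and Langerhans cells, was at 4.96, 3.60, 3.62, 3.79 and 4.27 CPM in DDR2-plus 1 to 5. In PSC 1 to 5 it stood at 8.07, 5.22, 9.10, 11.1 and 5.98 CPM. The groups only just failed to overlap, since PSC 2 and DDR2-plus 1 were nearly level. Il34 was 1.95-fold lower in DDR2-plus (log2 fold change -0.96, SE 0.242; edgeR adjusted p = 0.00686). Opposite-strand gene models share 5% of its exonic bases, and the library kit does not mark strand.

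Il34 was also set against Csf1 within each library. Per 100 Csf1 counts there were between 5.82 and 8.75 Il34 counts in DDR2-plus and between 4.86 and 11.2 in PSC, so that the groups overlapped. The log2 ratio differed by -0.21, with SDs of 0.242 and 0.458 (n = 5 each; two-sided exact permutation p = 0.405, adjusted p = 0.405 over the 3 ratios). Leaving out 1 library at a time, the difference lay between -0.38 and -0.08.

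Kitl (chromosome 10, 100015630 to 100100416, plus strand) encodes stem cell factor, which bone marrow stroma uses to hold haematopoietic stem cells. It was at 5.09, 5.10, 9.80, 7.44 and 6.65 CPM in DDR2-plus 1 to 5 and at 12.7, 17.4, 20.7, 14.5 and 14.1 CPM in PSC 1 to 5. All DDR2-plus libraries were below all PSC libraries, with number 3 the highest of each group. The gene was 2.33-fold lower (log2 fold change -1.22, SE 0.212; edgeR adjusted p = 0.000603). Gene counts do not part the soluble from the membrane-bound form.

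Cxcl12 (chromosome 6, 117168535 to 117181367, plus strand), the CXCR4 ligand that retains haematopoietic cells in the marrow, was at 231, 261, 254, 229 and 253 CPM in PSC 1 to 5. In DDR2-plus 1 to 5 it was at 93.1, 77.4, 127, 82.4 and 101 CPM. The PSC libraries varied little, with a coefficient of variation of 6.02%, against 20.1% in DDR2-plus. Cxcl12 was 2.56-fold lower in DDR2-plus (log2 fold change -1.36, SE 0.119; edgeR adjusted p = 2.93e-06).

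Ccl11, Ccl7 and Ccl2 lie next to each other on chromosome 11, all on the plus strand, at 82057823 to 82062955, 82045712 to 82047525 and 82035571 to 82037453. Ccl11 encodes eotaxin, which attracts eosinophils through CCR3. It was at 1.31, 0.664, 3.62, 1.20 and 1.61 CPM in DDR2-plus 1 to 5, from counts of 38 to 221. In PSC 1 to 5 it was at 23.4, 26.3, 25.1, 13.5 and 16.2 CPM, from counts of 590 to 1241. Even the lowest PSC library, number 4, was far above the highest DDR2-plus library, number 3. Ccl11 had the largest change of the 9 genes, 12.4-fold lower in DDR2-plus (log2 fold change -3.63, SE 0.401; edgeR adjusted p = 1.73e-05). Its absolute log2 fold change exceeded that of 97.2% of all genes tested.

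Ccl7, which encodes a monocyte attractant, was at 4.64, 2.10, 2.93, 3.21 and 4.54 CPM in DDR2-plus 1 to 5 and at 11.9, 8.38, 10.3, 8.29 and 9.96 CPM in PSC 1 to 5. The groups did not overlap, and the gene was 2.80-fold lower (log2 fold change -1.49, SE 0.246; edgeR adjusted p = 0.000406). Ccl2, the main ligand of the monocyte receptor CCR2, was at 2.75, 2.95, 3.13, 2.84 and 2.09 CPM in PSC 1 to 5. In DDR2-plus 1 to 5 it spread from 0.589 CPM in number 3 over 1.07, 1.52 and 2.37 CPM in numbers 2, 1 and 4 to 3.56 CPM in number 5, which was above every PSC library. Its coefficient of variation was 64.3% in DDR2-plus and 14.3% in PSC. The log2 fold change of Ccl2 was -0.59 with a 95% interval from -1.59 to 0.40 (edgeR adjusted p = 0.336). The interval includes a 3.01-fold lower level, so the data do not show that Ccl2 was alike in the populations. Without DDR2-plus 5 the Ccl2 log2 fold change was -0.997 (edgeR adjusted p = 0.113).

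Set against its neighbour, Ccl2 had between 20.3 and 78.5 counts per 100 Ccl7 counts in DDR2-plus and between 21.1 and 35.3 in PSC. The log2 ratio was 0.69 higher in DDR2-plus (exact permutation test, two-sided p = 0.159, adjusted p = 0.238 over the 3 ratios). Without DDR2-plus 3 the difference was 0.98 (exact permutation test, two-sided p = 0.0238, not adjusted). The other genes of this cluster by position, Ccl12, Ccl8 and Ccl1, were close to absent. Ccl12 had 4 counts, all in DDR2-plus 5. Ccl8 had 45 counts in DDR2-plus and 166 in PSC (log2 fold change -2.21, edgeR adjusted p = 0.187), and Ccl1 had 0 counts in all libraries, where a count of 0 allows up to 3 of the 520412307 counts.

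**Figure D3:**
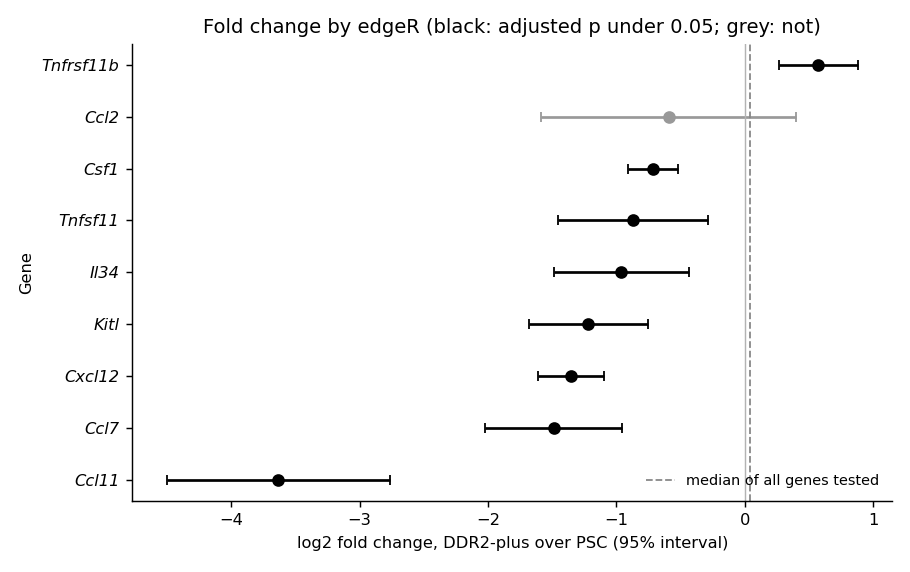
Log2 fold change of each gene, DDR2-plus over PSC, with its 95% interval from edgeR, and the median of all genes tested as a dashed line. Ccl11 lies apart at -3.63, Tnfrsf11b is the only gene above 0 at 0.57, and the interval of Ccl2 crosses 0.

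Among the DDR2-plus libraries, number 3 had the highest Kitl, Ccl11 and Cxcl12 and the lowest Tnfrsf11b and Ccl2. Its Tnfsf11, at 4.79 CPM, was nearly level with numbers 1 and 2, at 4.71 and 4.63 CPM. Il34 and Ccl7 were low in number 3, at 3.62 and 2.93 CPM, with only number 2 lower. Number 3 also had the highest sum of osteoblast markers in its group, at 51920 CPM against 29310 to 39640 CPM in the others, and the lowest sum of chondrocyte markers, at 83060 CPM. Its Ctsk level was 134 CPM against 97.8 to 104 CPM in the others. The part of these levels in the values of the 9 genes was not tested. Without DDR2-plus 3 the log2 fold change of Ccl11 was -4.14 (edgeR adjusted p = 2.17e-06). In the PSC group number 4 had the lowest Tnfsf11, Ccl7, Ccl11 and Cxcl12 and the highest Il34.

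Levels per length, as TPM from the longest annotated transcript, were compared between genes within a population. In PSC, Cxcl12 was the most abundant of the 9 genes at 113 ± 8.13 TPM, and its range lay above that of Csf1 at 60.3 ± 8.34 TPM (SD, n = 5). Ccl11 at 49.8 ± 13.8 TPM and Tnfrsf11b at 44.8 ± 6.94 TPM followed, and the ranges of Csf1, Ccl11 and Tnfrsf11b each overlapped with the next. Ccl7 at 31.4 ± 4.37 TPM was above Il34 at 11.3 ± 3.36 TPM without overlap, and Tnfsf11, Kitl and Ccl2 followed at 8.85, 7.26 and 6.48 TPM with overlapping ranges.

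The order in DDR2-plus differed at the top. Tnfrsf11b led at 79.6 ± 15.4 TPM, followed by Cxcl12 at 52.7 ± 10.7 TPM and Csf1 at 43.8 ± 1.72 TPM, with overlapping ranges between neighbours (SD, n = 5). Ccl7 at 13.5 ± 4.35 TPM was below Csf1 without overlap, and from there on neighbours overlapped: Il34, Tnfsf11, Ccl2, Ccl11 and Kitl were at 6.97, 5.79, 5.14, 4.80 and 3.73 TPM. Ccl11 was thus the gene of rank 3 in PSC and of rank 8 in DDR2-plus, and with exon union lengths it was of rank 2 in PSC, ahead of Csf1.

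**Figure D4:**
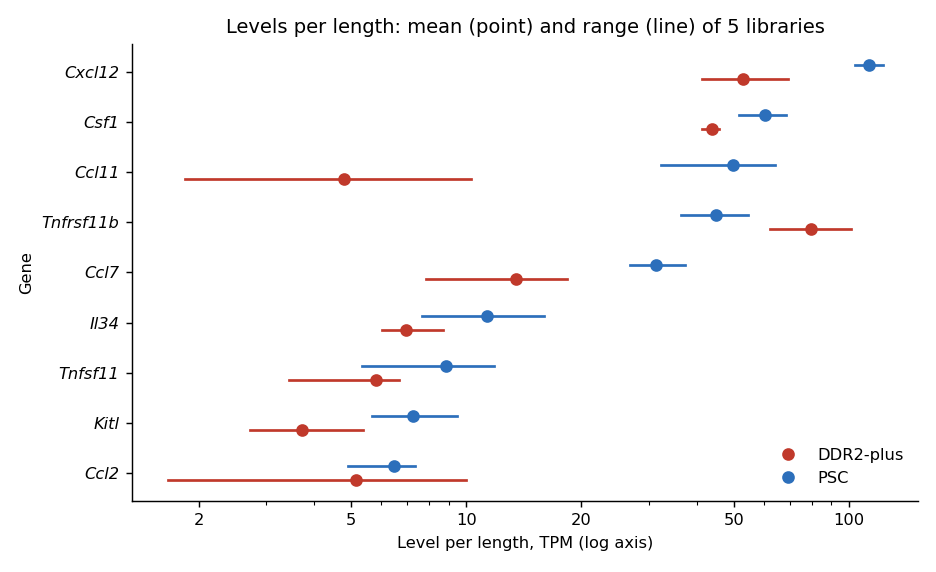
Level per length (TPM, log axis) of each gene in DDR2-plus (red) and PSC (blue), as the mean (point) and range (line) of 5 libraries. Cxcl12 leads in PSC at 113 TPM and Tnfrsf11b in DDR2-plus at 79.6 TPM, and the ranges of Ccl11 lie far apart.

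Receptors of these ligands that mark blood cells and osteoclast precursors had few counts. RANK (Tnfrsf11a) had 22 counts in DDR2-plus and 78 in PSC over all libraries. Csf1r was at 1.15 ± 0.289 and 2.18 ± 1.34 CPM (SD, n = 5 each; log2 fold change -0.93, 95% interval -1.94 to 0.09, edgeR adjusted p = 0.138), and shares 15.1% of its exonic bases with an opposite-strand gene. Ccr2 had 31 counts in DDR2-plus and 0 in PSC, Ccr3 had 0 counts in all libraries, and Cxcr4 was at 0.759 and 0.739 CPM. The 12 monocyte and macrophage markers summed to between 14.6 and 29.3 CPM in DDR2-plus and between 9.49 and 21.8 CPM in PSC, led by Lyz2, and of 7 tested 1 was higher and 6 were without a call. The pan-leukocyte gene Ptprc had 179 counts in DDR2-plus, of which 146 were in number 3, and 2 in PSC. Of the 10 osteoclast markers 4 were tested, with 2 higher (Mmp9 and Nfatc1) and 2 lower. The lower ones were Acp5, the gene of the acid phosphatase TRAP, at 14.5 against 27.1 CPM (edgeR adjusted p = 7.25e-05), and Itgb3, an integrin chain, at 17.7 against 46.9 CPM (edgeR adjusted p = 0.000233), both without overlap. Dcstamp was at 0 in PSC and had 8 counts in DDR2-plus, and Ocstamp had 14 counts in DDR2-plus and 58 in PSC. Calcr had 135 counts in DDR2-plus and 3 in PSC, Atp6v0d2 had 99 and 135, and Oscar had 32 and 36. The list's sum of 769 to 1012 CPM against 300 to 583 CPM came mostly from Mmp9. Chondrocytes also express Mmp9, and their part in this sum was not tested.

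Receptors and binding partners that stromal cells express did differ. Of 15 such genes 9 were tested, with 2 higher, 3 lower and 4 without a call, where 39.1% of all genes were called. Ackr3, the scavenging receptor that clears CXCL12, was 1.85-fold lower in DDR2-plus at 81.4 ± 10.7 against 151 ± 22.5 CPM (SD, n = 5 each; edgeR adjusted p = 7.09e-05). Ptprz1, a phosphatase that can bind IL34, was 2.86-fold lower, and Sdc1, the proteoglycan syndecan-1 that also binds IL34, 1.80-fold lower. Lgr4, an alternative receptor of RANKL, was 1.86-fold higher at 121 ± 16.5 against 65.3 ± 12.5 CPM (SD, n = 5 each; edgeR adjusted p = 0.000195). Kit, the receptor of the Kitl product, was 2.37-fold higher, with means of 9.998 ± 2.51 CPM and 4.22 ± 2.22 CPM and overlapping groups (SD, n = 5 each; edgeR adjusted p = 0.027). The call of Kit was lost without DDR2-plus 2, DDR2-plus 4 or PSC 1 (edgeR adjusted p of 0.0618, 0.068 and 0.0575), and over the 20 alternatives its adjusted p lay between 0.00613 and 0.135. The other 5 mast cell markers were too low to be tested: over all DDR2-plus and all PSC libraries, Cma1 had 53 and 32 counts, Tpsb2 10 and 12, Cpa3 8 and 0, Fcer1a 2 and 0, and Mcpt4 0 and 21. The atypical chemokine receptor genes Ackr1 (1.02 and 0.803 CPM, with 25.7% of its exonic bases shared with another gene) and Ackr2 (1.73 and 1.74 CPM) did not pass.

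Of 15 hormone and cytokine receptor genes through which stromal RANKL and OPG are known to be regulated, 2 were higher, 4 lower and 9 without a call, against 20.1% higher and 19.0% lower over all genes. Vdr, the vitamin D receptor, was 2.40-fold lower at 102 ± 18.7 against 244 ± 39.8 CPM (SD, n = 5 each; edgeR adjusted p = 1.8e-05). Lifr and Il11ra1, receptor chains for cytokines of the interleukin-6 family, were 2.75-fold and 1.97-fold lower. Pth1r, the parathyroid hormone receptor, was 1.58-fold higher at 787 ± 127 against 497 ± 101 CPM, and Il6ra was 4.07-fold higher at the low level of 5.27 CPM. Tgfbr2, a TGF-beta receptor, was at 241 and 274 CPM without a call (edgeR adjusted p = 0.107), and passed as lower without DDR2-plus 5 (edgeR adjusted p = 0.0289, the lowest over the alternatives, the highest being 1).

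Of 24 other factors that act on osteoclasts 19 were tested, with 5 higher and 8 lower, against 20.1% higher and 19.0% lower over all genes. Spp1, the gene of osteopontin, was 5.42-fold lower, Sema3a, a semaphorin that restrains osteoclast formation, 3.46-fold lower at 7.50 ± 1.51 against 26.0 ± 7.47 CPM, and Cthrc1, a secreted coupling factor, 1.65-fold lower. Spp1 shares 18.8% of its exonic bases with a gene model on the same strand. Bmp2, Tgfb2 and Efnb2 were 2.22-fold, 1.68-fold and 1.76-fold higher. Wnt5a had a log2 fold change of -0.53 without a call (edgeR adjusted p = 0.0644), and passed as lower under DESeq2 (adjusted p = 0.0414), without DDR2-plus 2 (edgeR adjusted p = 0.0496) or without PSC 1 (edgeR adjusted p = 0.0151), and over the alternatives its adjusted p reached 0.883.

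Of 36 other chemokine genes, 9 had 0 counts in all libraries, 12 had too few counts to be tested and 15 were tested, with 1 higher, 1 lower and 13 without a call (2 lower without DDR2-plus 1, DDR2-plus 5, PSC 1 or PSC 3). Calls thus covered 13.3% of those tested, against 39.1% over all genes. Cx3cl1, the membrane-bound chemokine fractalkine, was 4.19-fold higher in DDR2-plus at 45.4 ± 7.03 against 10.8 ± 4.36 CPM (SD, n = 5 each; edgeR adjusted p = 3.2e-05). Cxcl16, also a membrane-bound chemokine, was 2.53-fold lower at 3.99 ± 0.615 against 10.1 ± 2.06 CPM (edgeR adjusted p = 0.000191), and shares 18.3% of its exonic bases with an opposite-strand gene. Cxcl14, named as the one with the highest CPM among those without a call, was at 63.1 ± 2.58 and 75.0 ± 10.4 CPM (SD, n = 5 each; edgeR adjusted p = 0.0521), and passed as lower without PSC 3 (edgeR adjusted p = 0.00433, the lowest over the alternatives, the highest being 1).

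**Figure D5:**
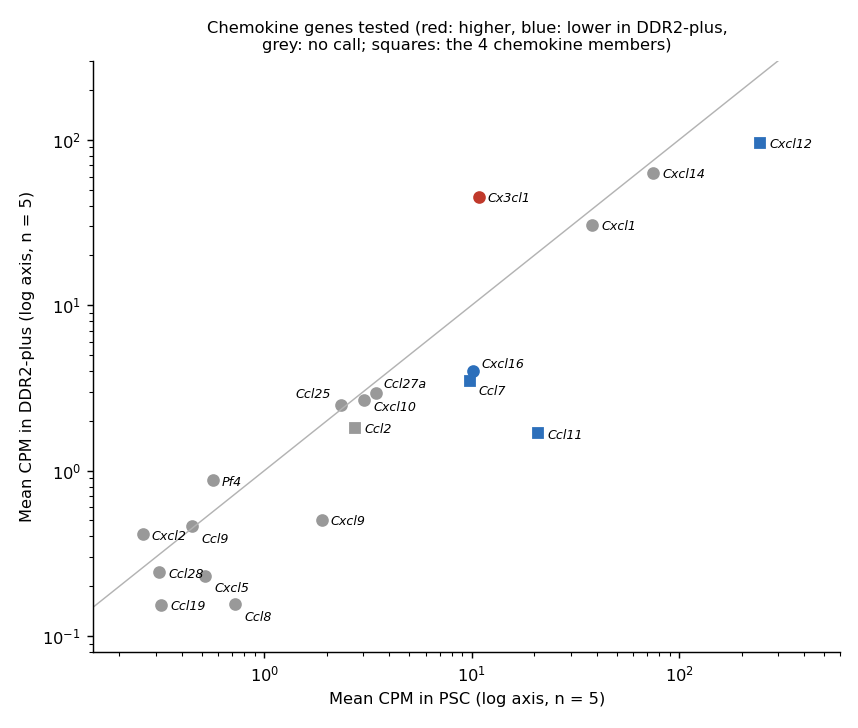
Mean CPM of the 15 other chemokine genes tested (circles) and of Ccl2, Ccl7, Ccl11 and Cxcl12 (squares) in PSC and in DDR2-plus (log axes, n = 5 each), with a line of equal level. Cx3cl1 is above the line at 45.4 against 10.8 CPM, and Ccl11 is farthest below it. Cxcl9 and Ccl8 are also below the line, without a call.

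Ccl2 and Ccl7 are textbook targets of NF-kB and are induced in early stress responses, so genes of both programmes were counted. Of 16 NF-kB response genes, 5 were higher, 4 lower and 7 without a call, and without DDR2-plus 1, DDR2-plus 4, PSC 1 or PSC 4 only 2 were lower. Among all genes tested, 20.1% were higher and 19.0% lower. Irf1, an interferon-response factor, Rel, an NF-kB subunit, and Ier3 were 2.88-fold, 2.45-fold and 1.71-fold higher in DDR2-plus. Vcam1, a leukocyte adhesion molecule, Tnfaip2 and the NF-kB subunit gene Nfkb1 were 1.90-fold, 1.72-fold and 1.24-fold lower, and Nfkb1 lost its call in 9 of 20 alternatives, among them without DDR2-plus 1, 4 or 5 and without PSC 1 or 4 (edgeR adjusted p of 0.0543 to 0.0689). Nfkbia, the inhibitor that NF-kB induces, was at 115 and 129 CPM without a call (edgeR adjusted p = 0.131).

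Of 22 early response genes 17 were higher and 5 without a call, where 20.1% of all genes were higher. Without PSC 3, 2 were called lower. The heat shock genes Hspa1a and Hspa1b were the only 2 with a negative log2 fold change, -0.47 and -0.52 (edgeR adjusted p of 0.285 and 0.228). Both were lowest among the PSC libraries in PSC 3, at 63.4 and 79.9 CPM. Dnajb1, a heat shock co-chaperone, Btg2 and Zfp36, which binds the AU-rich elements of cytokine transcripts, were 4.57-fold, 4.03-fold and 2.81-fold higher. Jund was at 629 and 583 CPM without a call (edgeR adjusted p = 0.212), and shares 52.6% of its exonic bases with an opposite-strand gene model. The part of the early response in the levels of the chemokine genes was not tested.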

How the data were processed

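RNA was measured in 10 libraries of sorted suture cells, 5 DDR2-plus and 5 PSC. The authors deposited raw counts, 1 whole number for each gene symbol and library, whose totals differ between libraries. Per the submitters' processing notes, the build was mm10 and DESeq was used; which aligner, counter and annotation they used is not given in the sources used here. Per the labels' protocols, cDNA was amplified with a full-length template-switching kit and tagmented into libraries, chemistry that carries no strand information. Amplified reads are not independent molecules, and floors on counts of 0 cover counting error only.

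Groups were compared in R 4.3.3 by edgeR 4.0.16, quasi-likelihood test (TMM factors, filterByExpr, no covariates, Benjamini-Hochberg adjustment over 15416 genes, threshold 0.05). Each SE is the log2 fold change over the root of its F value. Ratios of counts (0.5 added to each) were compared by exact permutation over libraries. Positions, lengths and exon overlap come from GENCODE vM21 (GRCm38), to which 96.4% of symbols matched, and levels per length use its longest transcript. Alternatives were DESeq2 1.42.0, limma-voom (limma 3.58.1), other scalings and filters, a 1.5-fold test, a block on library number and leaving out each library.

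The genes and lists were chosen with earlier results of these data known. Genes named besides the 9 are the sort genes, receptors of at least 1 CPM, neighbours of Ccl2, up to 3 genes per list and direction with the smallest p, and the most abundant gene of each list without a call. Those named with counts only, such as receptors under 1 CPM, were added after their values were seen. So were Hspa1a and Hspa1b, Cxcl9 and other chemokine genes under 1 CPM, and most cell type markers named. On simulated counts over 15112 genes, edgeR recovered 28.8% of 66 genes changed 1.5-fold, 53.7% of 67 changed 2-fold and 73.9% of 65 changed 4-fold, with 4.63% of the calls false. Only these few genes were changed there, whereas 39.1% of genes were called in the data. The adjustment was therefore stricter in the simulation, and the shares recovered do not carry over to the fit reported. No libraries of a group agreed within sampling noise (chi-square per degree of freedom at least 39.2). The protocol names 5 mice without saying which gave which library, so p-values measure the spread between these libraries.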

Additional observations from a re-analysis of the deposited data

Results flagged for a closer look

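Within the groups of 5 libraries, 8 values stood apart from the rest of their group by Dixon's 95% criterion. In all 98 groups were checked, and chance flags about 1 in 20. Among the 9 genes this concerned Tnfsf11 in DDR2-plus 4, at 2.48 CPM where the other DDR2-plus libraries were between 4.38 and 4.79 CPM. Among the other genes, Ddr2 was at 134 CPM in PSC 1 (others 152.9 to 160.3) and Spp1 at 29310 CPM in PSC 1 (others 19150 to 21220). Ctsk was at 134.1 CPM in DDR2-plus 3 (others 97.8 to 104.3), Vcam1 at 27.3 CPM there (others 18.6 to 20.03) and Btg2 at 1696 CPM there (others 2220 to 2386). Irf1 was at 39.3 CPM in PSC 3 (others 87.2 to 91.3) and Ier3 at 188 CPM there (others 254.8 to 279).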

How the results depend on the processing

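Of 180 recomputed results on the 9 genes, 174 kept their direction and side of the threshold, 6 lost their call and 0 reversed. Tested against a fold change of 1.5, calls were lost for Tnfsf11, Tnfrsf11b, Csf1 and Il34 (edgeR adjusted p of 0.246, 0.773, 0.13 and 0.12), which left 4 of the 9 lower and 0 higher, and 1245 genes higher and 906 lower in all in place of 3096 and 2926. The other losses, of Tnfsf11, came with library size alone and without PSC 2. Library size alone moved the median log2 fold change of all genes from 0.04 to 0.31, with 5421 genes called higher and 1538 lower. It turned the sign of the uncalled genes Tgfbr2 (0.0825), Cxcl14 (0.0203), Nfkbia (0.10) and Ackr2 (0.25), while Jund passed as higher (0.38, edgeR adjusted p = 0.000642). Ackr2 was also at 0.001 under DESeq2 and under its size factors in edgeR, and between -0.51 and 0.40 without 1 library, and the cause was not tested. Without 1 library the difference of the Ccl2 to Ccl7 ratio lay between 0.50 and 0.98 and that of the RANKL to OPG ratio between -1.60 and -1.20.

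The sources do not say whether same-numbered libraries came from the same animal. Their deviations from the group means correlated at 0.001 to 0.108, and 3 of 5 DDR2-plus libraries correlated best with the PSC library of their number. With the library number as a replicate block, 3054 genes were higher and 2688 lower, no call among the 9 genes changed, and Wnt5a passed as lower (edgeR adjusted p = 0.0303). Exact sign flips over the pairs gave the RANKL to OPG difference of -1.41 a p of 0.0625, the smallest that 5 pairs can give. With exon union lengths 10 of 18 levels per length moved by over 1 SD. Of 240 recomputed list counts 213 stayed within 1.5 times. Depth limits the genes with few counts, such as Ccl2 with 36 in DDR2-plus 3 and Ccl11 with 38 in DDR2-plus 2.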
